A study of Gallus gallus with 32 samples.

Results

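A set of 5 genes of antigen presentation by major histocompatibility complex (MHC) class I molecules was followed in the blood of broiler chickens: BF2, B2M, TAP1, TAPBPL and ERAP1. They were taken as the probe sets whose only gene symbol, in the array annotation or under its current name, was 1 of these 5 names. All 5 genes had values, in 6 probe sets (2 for TAP1), out of 9680 named genes and 17894 probe sets measured. Every one of the 6 probe sets lay above the median probe set in mean signal, and none was lost to a filter.

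Blood of 32 broiler chickens was profiled on 1 Affymetrix array per bird. The birds formed 4 groups of 8, namely males on a comfrey-supplemented diet, males on the control diet, females on the comfrey-supplemented diet and females on the control diet. The RNA came from frozen clots labelled as whole blood cells, so each value averages over red cells, which are nucleated in birds, thrombocytes and leukocytes. The age label reads 32 with months as its unit, which is rare for broilers, and it entered no test. The sources used here give neither the dose nor how long the diets were fed.

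Class I molecules carry short peptides from inside the cell to its surface, where CD8 T cells read them. BF2 encodes the class I heavy chain that chickens use most, in the compact B locus on chromosome 16. B2M (chromosome 10) encodes the light chain, beta-2-microglobulin, that every class I heavy chain needs. TAP1 (chromosome 16, beside the BF genes) encodes a subunit of the transporter that moves peptides into the endoplasmic reticulum. TAPBPL (chromosome 1) encodes a relative of tapasin, known in mammals to help select the bound peptide. ERAP1, on the Z sex chromosome, encodes an aminopeptidase known in mammals to trim peptides in the endoplasmic reticulum. In birds it is the male that has a pair of Z chromosomes, while the female has a single Z and a W. In many cell types interferon raises transcription of class I pathway genes.

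Values are log2 probe set signals, and a difference of 1 is a 2-fold change. Across the 32 arrays the medians lay between 6.51 and 6.6 and correlations between arrays between 0.945 and 0.984. The number of arrays bears on how precise a group mean or difference is. Signals of different probe sets do not compare the amounts of their transcripts. Differences were tested with limma on all probe sets, and a probe set was called at a Benjamini-Hochberg adjusted p under 0.05. One bird stood apart, control male bird 31, which had the highest value of all 32 birds for both TAP1 probe sets, TAPBPL, ERAP1 and B2M and for the mean of 19 interferon-induced genes. Values without bird 31 stand beside the results that rest on it. In blood taken as a whole, fewer cells of a type and less RNA per cell cannot be told apart.

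BF2 varied widely among birds within every group. Its log2 signal ran from 11.13 through a median of 12.16 to 12.39 in comfrey males, and from 11.10 through 11.50 to 12.21 in control males. In females it ran from 11.30 through 11.96 to 12.30 on comfrey and from 10.90 through 11.04 to 12.23 on control. The groups overlapped, though most control females sat near the low end and most comfrey birds near the high end. The highest bird had 2.80 times the signal of the lowest. The within-group SD of 0.46 stood at the 88.2 percentile of all probe sets, whose median SD was 0.23.

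Sorted by BF2, the birds showed their largest gap of 0.22 between 11.66 and 11.88. Above it lay 15 birds, made up of 6 comfrey males, 3 control males, 5 comfrey females and 1 control female. The other 17 birds lay below it. The gap was found by looking at these values and carries no test. BF genes differ in sequence among chickens, and BF1 and BF2 are close relatives; whether binding of the probes differed among birds or between these genes was not tested.

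**Figure D1:**
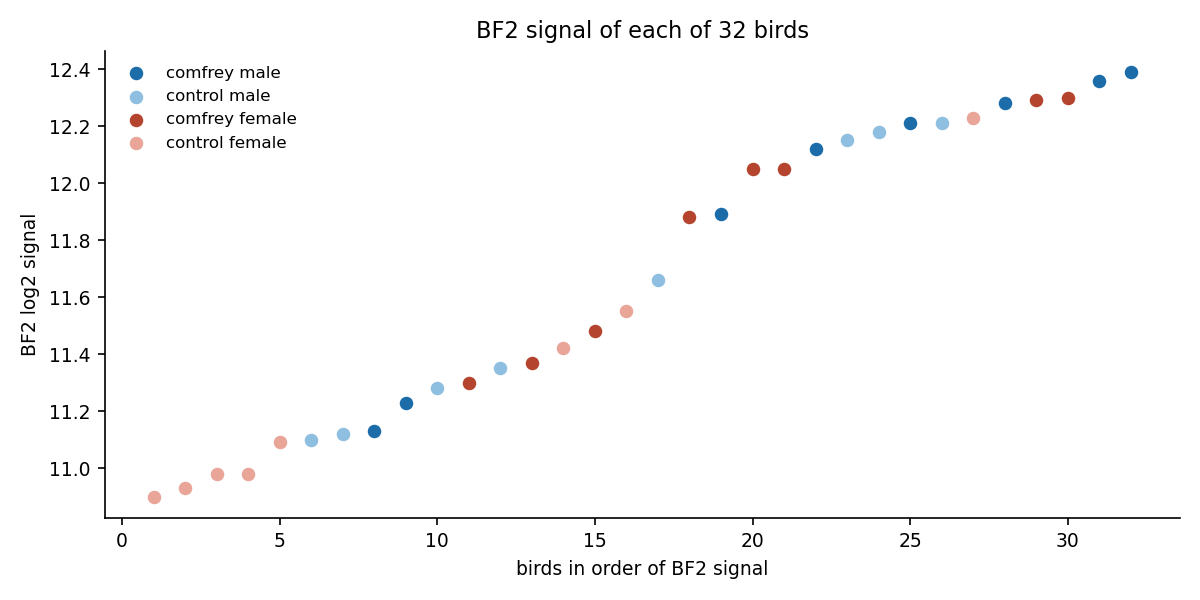
BF2 log2 signal (vertical axis) of each of the 32 birds, placed in order of that signal (horizontal axis), 1 point per bird coloured by diet and sex. The signals separate most between 11.66 and 11.88, and of the 15 birds above that gap 1 is a control female.

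BF2 was 0.58 ± 0.22 higher on the log2 scale in comfrey females than in control females, a 1.49-fold difference, but it did not pass the test (limma, unadjusted p 0.0145, adjusted p 0.998, 95% interval 0.12 to 1.03). Here and below, the error of a difference is its SE from the fit, while the error of a mean is the SD. The fit takes 1 spread from all 4 groups. The means were 11.84 ± 0.41 in comfrey females and 11.26 ± 0.46 in control females (n = 8 each). Comfrey males averaged 11.95 ± 0.50 and control males 11.63 ± 0.49, which differ by 0.32 ± 0.22 (adjusted p 0.602, 95% interval -0.13 to 0.78). Both sexes leaned the same way, and their difference of -0.26 ± 0.32, taken as males minus females, did not pass the test either (adjusted p 0.939).

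With both sexes in 1 model BF2 averaged 11.89 ± 0.45 in comfrey birds and 11.45 ± 0.50 in control birds (n = 16 each). The difference of 0.45 ± 0.16, or 1.37-fold, had an unadjusted p of 0.00738 and an adjusted p of 0.614. The sign was the same in birds numbered 1 to 16 and 17 to 32, at 0.66 and 0.50 in females and at 0.47 and 0.12 in males. The 0.50 in females and the 0.47 in males each set 4 comfrey birds against 2 control birds. The labels do not call that numbering a batch. Bird 31, at 11.66, lay near the mean of its group for BF2.

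B2M was nearly flat across birds. Its signal ran from 13.13 through a median of 13.22 to 13.25 in comfrey males, and from 13.11 through 13.21 to 13.26 in control males. In females it ran from 13.11 through 13.19 to 13.24 on comfrey and from 13.09 through 13.19 to 13.24 on control. All 4 groups overlapped almost wholly, and the highest bird had 1.12 times the signal of the lowest. The within-group SD was 0.05, and 6 of the 17894 probe sets varied less. B2M lies close to the highest value in the table, 13.97, where an array can lose response, and whether it did so here was not tested.

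The diet difference of B2M was 0.01 ± 0.04 in males (95% interval -0.07 to 0.09) and 0.00 ± 0.04 in females (95% interval -0.08 to 0.08). Over both sexes it was 0.01 ± 0.03 (adjusted p 0.95), with an interval of -0.05 to 0.06. These were the narrowest intervals among the 5 genes.

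TAP1 was measured by a brighter and a dimmer probe set. The brighter probe set ran from 7.15 through a median of 7.53 to 8.29 in comfrey males, and from 7.51 through 8.07 to 9.16 in control males. In females it ran from 7.44 through 7.70 to 7.98 on comfrey and from 7.62 through 7.74 to 7.93 on control. Control males reached highest, through bird 31 at 9.16, and females spread less than males in both diets. The dimmer probe set gave 7.21, 7.55 and 7.78 as lowest, median and highest in comfrey males, and 7.27, 7.85 and 8.72 in control males. In females it gave 7.30, 7.48 and 7.76 on comfrey and 7.56, 7.61 and 7.75 on control. The groups overlapped in both probe sets.

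In males, the TAP1 mean of the brighter probe set was 7.61 ± 0.42 on comfrey and 8.09 ± 0.51 on control. The difference was -0.48 ± 0.17, or 0.72-fold (unadjusted p 0.00862, adjusted p 0.417), and -0.325 without bird 31. For the dimmer probe set it was -0.35 ± 0.12 (unadjusted p 0.00731, adjusted p 0.417), and -0.228 without bird 31. Neither passed the test across the array. TAP1 in males carried the same sign in both probe sets, with 95% intervals of -0.82 to -0.13 and -0.59 to -0.10.

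In females the same TAP1 differences were -0.06 ± 0.17 for the brighter probe set, with an interval of -0.40 to 0.29, and -0.13 ± 0.12 for the dimmer one. Males minus females, they differed by -0.42 ± 0.24 (adjusted p 0.872) and -0.22 ± 0.17 (adjusted p 0.906), so a difference in response between the sexes was not shown. Without bird 31 these were -0.268 and -0.103. Within males, the brighter probe set differed by -0.29 in birds 1 to 16 and by -0.47 in birds 17 to 32, and the dimmer one by -0.01 and -0.45. The values for birds 1 to 16 set 4 comfrey males against 2 control males, and those for birds 17 to 32 include bird 31. Within females, the brighter probe set differed by -0.21 in birds 1 to 16 and by 0.15 in birds 17 to 32. The dimmer one differed by -0.26 and 0.01. For females it is birds 17 to 32 that set 4 comfrey birds against 2 control birds.

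TAPBPL, like TAP1, did not pass for diet in either sex. Its signal ran from 8.07 through a median of 8.39 to 8.60 in comfrey males, and from 8.08 through 8.61 to 9.49 in control males. In females it ran from 8.08 through 8.25 to 8.39 on comfrey and from 7.85 through 8.30 to 8.61 on control. The highest control male was again bird 31, and the groups overlapped. Comfrey males averaged 8.37 ± 0.18 and control males 8.67 ± 0.39, a difference of -0.31 ± 0.13 or 0.81-fold (unadjusted p 0.022, adjusted p 0.434). Without bird 31 the TAPBPL difference in males was -0.19. Within males it was -0.06 in birds 1 to 16 (4 comfrey against 2 control) and -0.33 in birds 17 to 32, which include bird 31. In females the TAPBPL difference was 0.03 ± 0.13, and the sexes differed in it by -0.34 ± 0.18 (adjusted p 0.861), or by -0.219 without bird 31.

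ERAP1 split the birds by sex and not by diet. Its signal ran from 10.56 through a median of 10.70 to 10.97 in comfrey males and from 10.60 through 10.82 to 11.79 in control males. In females it ran from 9.82 through 9.98 to 10.10 on comfrey and from 9.87 through 9.96 to 10.07 on control. Every male lay above every female. Within a sex the diets overlapped, and bird 31 at 11.79 was far above the next control male at 10.93.

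The diet difference of ERAP1 was -0.18 ± 0.10 in males (adjusted p 0.538), which came to -0.0568 without bird 31. In females it was -0.00 ± 0.10. Neither passed the test, and neither did the difference between the sexes in it, -0.18 ± 0.15 (adjusted p 0.919), which came to -0.0535 without bird 31.

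**Figure D2:**
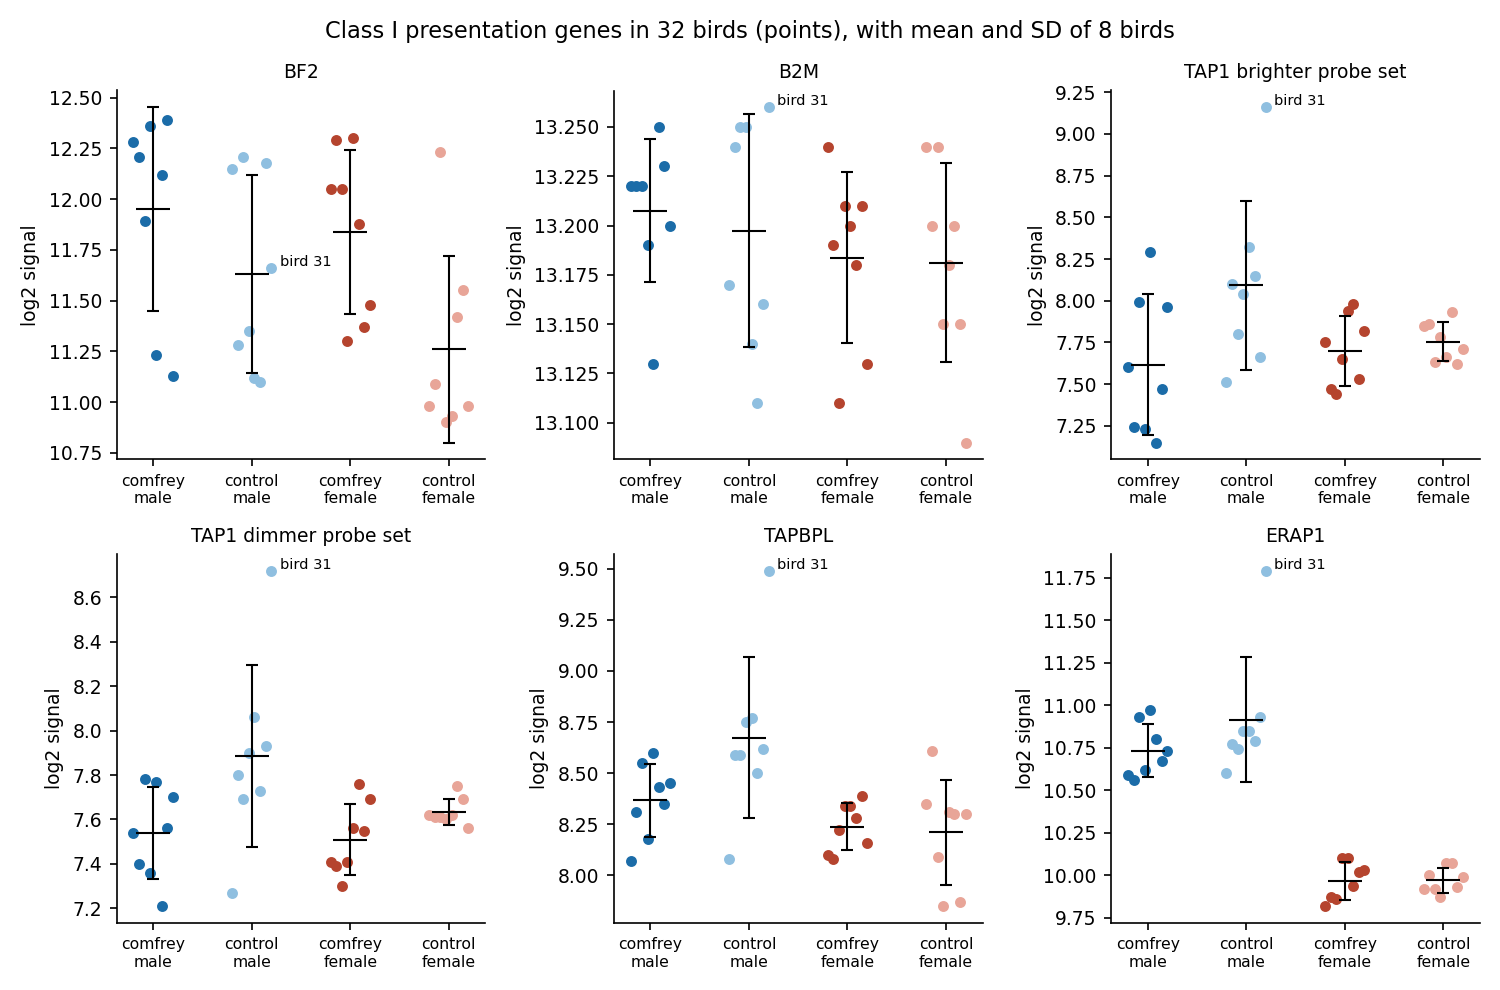
Log2 signal (vertical axes, a scale of its own in each panel) of the 6 probe sets in each of 32 birds, by diet and sex (horizontal axes), with points for birds, horizontal bars for means and error bars for the SD of 8 birds. ERAP1 lies between 10.56 and 11.79 in males and between 9.82 and 10.10 in females, and bird 31 is marked.

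The diet comparisons asked whether dietary comfrey changed transcripts of the class I pathway, in each sex and over both. None of the 6 probe sets passed the adjusted threshold in males, where 0% of all 17894 probe sets did, nor in females, where 0.00559% did (1 probe set). None passed for the difference between the sexes, where 0% passed, or over both sexes, where 0% did.

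At an unadjusted p under 0.05, 3 of the 6 were below it in males, against 10.3% of all probe sets. These 3 were both TAP1 probe sets and TAPBPL. Without bird 31 they were the 2 TAP1 probe sets, against 7.78% of all probe sets. BF2 alone was below it in females, where 3.93% of all probe sets were. None of the 6 was below it for the difference between the sexes, against 5.7% of all probe sets. BF2 and both TAP1 probe sets were below it over both sexes, against 7.99% of all probe sets. Without bird 31 they were BF2 and the dimmer TAP1 probe set, against 6.84% of all probe sets. The 6 probe sets share birds, and the 2 of TAP1 measure 1 gene, so these counts are a description.

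The signs were mixed. In males 4 of the 6 differences were below 0, with a median of -0.24 beside -0.01 for all probe sets, and -0.12 without bird 31. In females 3 of the 6 were below 0, with a median of -0.00 beside -0.01. Over both sexes 4 were below 0, with a median of -0.12 beside -0.01, and -0.05 without bird 31. BF2 leaned up and TAP1 down on comfrey, although the TAP1 differences in females of birds 17 to 32 were 0.15 and 0.01. The interval of B2M stayed within 0.09 of 0 in both sexes.

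**Figure D3:**
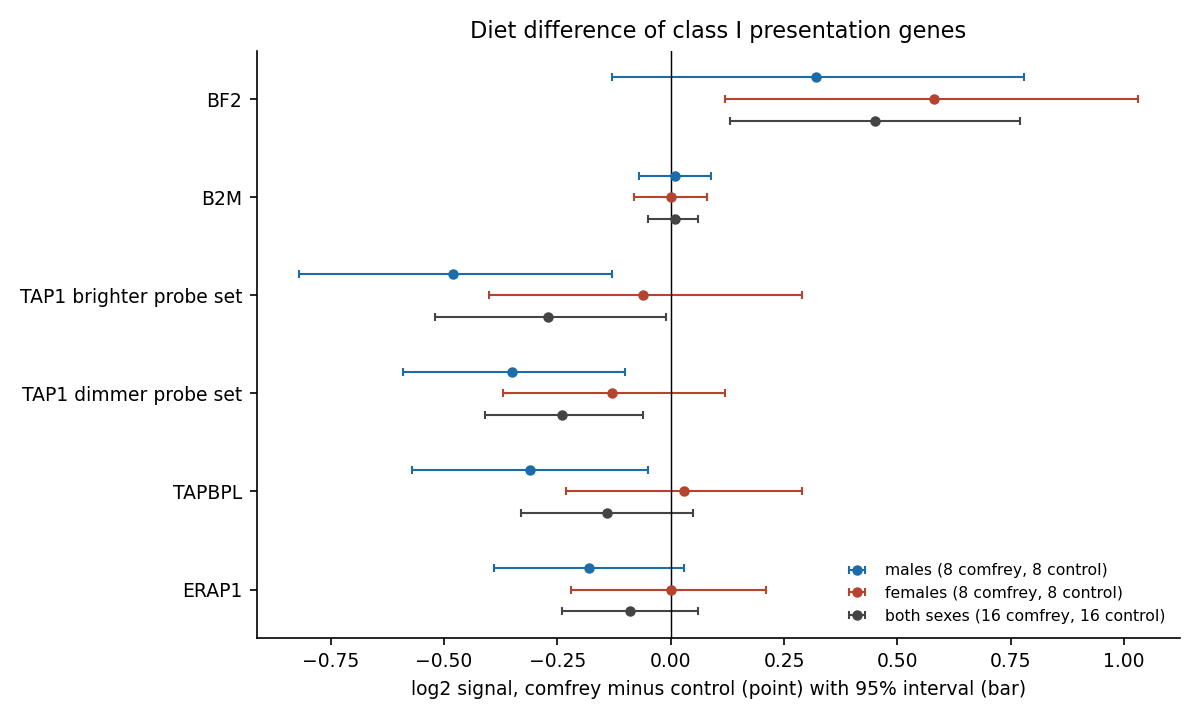
Difference in log2 signal, comfrey minus control (horizontal axis), for the 6 probe sets (rows) in males, females and both sexes, with points for the fitted difference and bars for its 95% interval. The points of BF2 lie right of 0 and those of TAP1 left of 0. The bars of BF2 in males and of TAP1 in females cross 0. The B2M bar spans -0.05 to 0.06 over both sexes.

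The sex comparison held diet as a covariate. ERAP1 rose in males, at 10.82 ± 0.29 in males and 9.97 ± 0.09 in females (n = 16 each). The difference of 0.85 ± 0.07 was 1.81-fold (limma, 95% interval 0.70 to 1.01, adjusted p 1.06e-10). Leaving out any 1 bird kept it between 0.791, without bird 31, and 0.873. It was 0.73 in birds 1 to 16 and 0.91 in birds 17 to 32, which include bird 31. ERAP1 was the 1 probe set of the 6 that passed, where 5.35% of all probe sets did. Its males and females did not overlap, which held for 0.928% of all probe sets.

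ERAP1 was among many Z-linked genes that were higher in males. Of 447 named Z-linked probe sets 206 were called higher in males, where 631 of all 17894 probe sets were. The median difference of the 447 was 0.28. Among the 204 with a mean signal above that of the median probe set, the median difference was 0.55, or 1.47-fold, with quartiles of 0.41 and 0.71. A larger difference than that of ERAP1 was found for 18 of these 204. The rank is a description, since Z-linked genes on the same arrays share their birds.

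**Figure D4:**
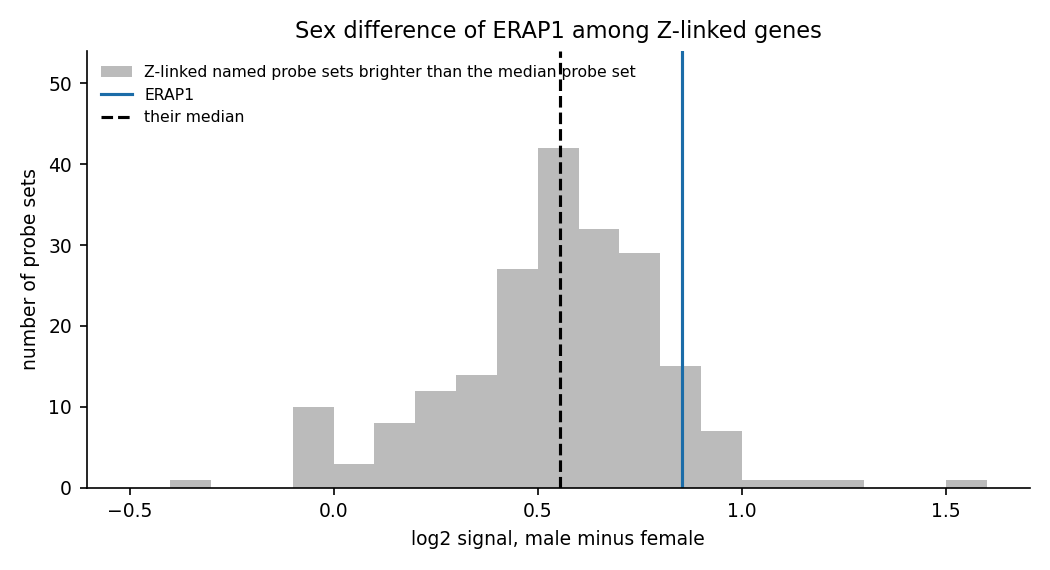
Number of named Z-linked probe sets with a mean signal above that of the median probe set (vertical axis) by their difference in log2 signal, male minus female (horizontal axis). The solid line marks ERAP1 at 0.85 and the dashed line the median of the 204 probe sets at 0.55.

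TAPBPL averaged 8.52 ± 0.34 in males and 8.23 ± 0.19 in females, a difference of 0.30 ± 0.09 or 1.23-fold. It lay just outside the threshold (unadjusted p 0.00333, adjusted p 0.0585). It passed when any 1 of 5 birds was left out, with a lowest adjusted p of 0.0211 without control male bird 3. Without bird 31 the TAPBPL difference was 0.234. With all birds it was 0.07 in birds 1 to 16 and 0.43 in birds 17 to 32, which include bird 31.

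The other members did not pass for sex. BF2 averaged 11.79 ± 0.51 in males and 11.55 ± 0.51 in females, a difference of 0.24 ± 0.16 (adjusted p 0.487). For TAP1 the differences were 0.13 ± 0.12 for the brighter and 0.14 ± 0.09 for the dimmer probe set, with adjusted p-values of 0.683 and 0.439. Without bird 31 they were 0.047 and 0.0824. B2M differed by 0.02 ± 0.03 (adjusted p 0.783). With an unadjusted p under 0.05 were 2 of the 6, ERAP1 and TAPBPL, against 16.5% of all probe sets. All 6 differences were above 0, with a median of 0.19 beside -0.02 for all probe sets.

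Variation from bird to bird was then compared after the mean of each diet and sex group had been removed, with TAP1 taken from its brighter probe set. The p-values come from 100000 permutations of birds within groups, two-sided, adjusted over 50 relations, and 1e-05 is the smallest they can give. TAPBPL and ERAP1 moved together most, with a Pearson r of 0.83 (permutation p 1e-05, adjusted p 0.00025) and a Spearman rho of 0.74 (permutation p 1e-05, adjusted p 0.0005). Leaving out birds 31 and 3, the farthest from the median of TAPBPL, gave 0.64 (adjusted p 0.0025). The r was 0.68 in birds 1 to 16 and 0.90 in birds 17 to 32, which include bird 31.

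TAP1 and ERAP1 had an r of 0.75 (permutation p 0.00082, adjusted p 0.00758) and a rho of 0.50 (permutation p 0.00856, adjusted p 0.0476). Without birds 31 and 19 the r was 0.42 (adjusted p 0.3), which no longer passed. Nor did the r of 0.54 without bird 31 alone (permutation p 0.0115, adjusted p 0.0824). TAP1 and TAPBPL had an r of 0.68 (permutation p 0.00031, adjusted p 0.00387) and a rho of 0.52 (permutation p 0.00267, adjusted p 0.0334). Without the 2 birds farthest from the median their r was 0.43 (adjusted p 0.112), while without bird 31 alone it was 0.48 (permutation p 0.00426, adjusted p 0.0426). With all 32 birds, 3 of the 10 pairs of members passed, and 1 passed without the 2 farthest birds.

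BF2 did not follow this trio. Its r with TAP1 was -0.46, with TAPBPL -0.34 and with ERAP1 -0.22, and none passed (permutation test, adjusted p 0.0866, 0.265 and 0.572). By rank, the rho of BF2 and TAP1 was -0.54 (permutation p 0.00422, adjusted p 0.0352). Without birds 7 and 32, the farthest from the median of BF2, their r was -0.44 and did not pass (permutation test, adjusted p 0.238). Without bird 31, a choice made after seeing the data, the r of BF2 and TAP1 was -0.60 (permutation p 0.00118, adjusted p 0.0147). B2M had r values of 0.31 with BF2, 0.25 with TAPBPL, 0.15 with ERAP1 and 0.03 with TAP1, none of which passed.

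The interferon list held 24 genes induced by interferon, of which 19 were measured, among them MX1, RSAD2 and IRF7. The list, like the members, was chosen with earlier results of these data known, which limits the p-values of relations with it. For each bird its level was the mean log2 signal of the 19. The level was 9.37 ± 0.51 in comfrey males, where it ran from 8.93 to 10.45. It was 9.81 ± 0.84 in control males, from 8.94 to 11.80 with bird 31 as the highest and the next bird at 9.79. In females it was 9.25 ± 0.12 on comfrey and 9.21 ± 0.17 on control.

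ERAP1 followed this level closely, with an r of 0.91 (permutation p 1e-05, adjusted p 0.00025) and a rho of 0.81 (permutation p 2e-05, adjusted p 0.0005). Without birds 31 and 19 the r was 0.72 (adjusted p 0.0025). Within birds 1 to 16 it was 0.79, and within birds 17 to 32, which include bird 31, it was 0.96. TAPBPL had an r of 0.77 (permutation p 8e-05, adjusted p 0.00133) and a rho of 0.67 (permutation p 6e-05, adjusted p 0.001). Its r of 0.46 without 2 birds no longer passed (adjusted p 0.112). TAP1 had an r of 0.77 (permutation p 0.00091, adjusted p 0.00758) and a rho of 0.56 (permutation p 0.00338, adjusted p 0.0338), and its r of 0.57 without 2 birds did not pass (adjusted p 0.107). These 2 relations passed over all birds both as r and by rank, and lost the call without birds far from the median.

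The relations of BF2 and B2M with the interferon level did not pass, with r values of -0.20 and 0.06 (permutation test, adjusted p 0.592 and 0.954). B2M had a within-group SD of 0.05 and lay near the top of the range. Its r therefore cannot show whether its transcript followed that level. Without bird 31 alone the r was 0.72 for ERAP1, 0.58 for TAP1, 0.56 for TAPBPL and -0.34 for BF2. ERAP1 and TAPBPL then still passed, and TAP1 did not.

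**Figure D5:**
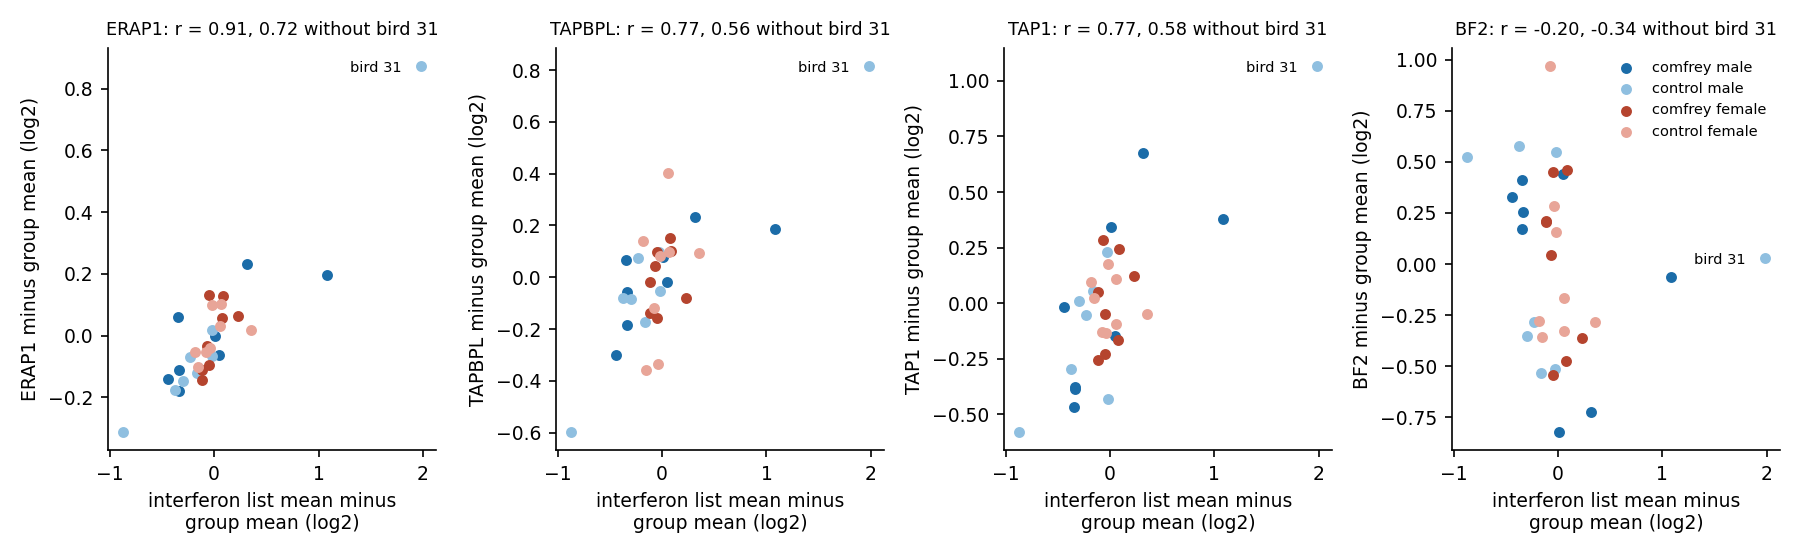
Signal of ERAP1, TAPBPL, TAP1 and BF2 (vertical axes, log2) against the mean of 19 interferon-induced genes (horizontal axes, log2), both as the bird's value minus the mean of its diet and sex group, with 1 point per bird. Bird 31 lies farthest right in each panel, and the r of ERAP1 is 0.91 with it and 0.72 without it.

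None of the 19 interferon genes passed the test for diet or sex. In males all 19 differences of comfrey minus control were below 0, with a median of -0.36 beside -0.01 for all probe sets, and 7 had an unadjusted p under 0.05, against 10.3% of all probe sets. These p-values use the spread shared by both sexes, although the interferon level spread more in males than in females. Among the 19, XAF1 had a low mean signal of 2.69, and its difference in males was -0.01 ± 0.272. Without bird 31 the count in males was 15 below 0 and 4 above, with a median of -0.08 and with 0 at an unadjusted p under 0.05, against 7.78% of all probe sets. In females 15 were above 0 and 4 below, with a median of 0.06. For sex all 19 were above 0 in males minus females, with a median of 0.31. Without bird 31, 18 of the 19 were above 0 for sex, with a median of 0.17. The list's genes share the same birds, and its differences were not separated from those of TAP1 and TAPBPL.

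Levels of 7 lists of blood cell markers were also set against the 5 members. None of these 35 relations passed by Pearson r. By rank, 2 passed, B2M with cytotoxic cell markers at a rho of -0.48 (permutation p 0.00559, adjusted p 0.0399) and TAPBPL with B cell markers at a rho of -0.48 (permutation p 0.00793, adjusted p 0.0476). Their Pearson r values were -0.32 and -0.42. Without the 2 farthest birds those r values were -0.32 and -0.26, and neither passed. B2M had a within-group SD of 0.05 near the top of the range, so its rho orders birds by small differences. The cytotoxic level rests on 3 of 8 listed markers and the B cell level on 4 of 8.

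Some markers of thrombocytes, which in birds are nucleated, differed by sex, as ERAP1 did. The mean of 5 of 9 listed markers was 8.25 ± 0.73 in comfrey males (7.14 to 9.16), 8.59 ± 0.73 in control males (7.28 to 9.39), 7.89 ± 0.37 in comfrey females (7.51 to 8.44) and 7.74 ± 0.43 in control females (7.15 to 8.42). Of these 5, 2 were called higher in males, ITGB3 at 0.74 ± 0.22 (adjusted p 0.0418) and GP1BB at 0.49 ± 0.145 (adjusted p 0.0385). Over the array 5.35% of all probe sets were called for sex. Without bird 31 none of the 5 was called, though all 5 had a difference above 0. All 5 then had an unadjusted p under 0.05, against 16.4% of all probe sets. Of 3 measured cytotoxic cell markers (of 8 listed) 1, XCL1, was called higher in males. Their mean was 6.43 ± 0.63 in comfrey males (5.85 to 7.49), 6.59 ± 0.50 in control males (5.67 to 7.30), 6.12 ± 0.19 in comfrey females (5.80 to 6.40) and 5.92 ± 0.17 in control females (5.65 to 6.17). Of 6 measured erythroid markers (of 12 listed) 1, TAL1, was called lower in males, at -0.39 ± 0.109 (adjusted p 0.0278). The sex differences of these 6 were mixed, 2 above 0 and 4 below, with a median of -0.04. SLC4A1 had the other sign, at 0.28 ± 0.109 (limma, unadjusted p 0.0146, adjusted p 0.151). Without bird 31, 2 of the 6 erythroid markers were called. The 6 T cell, 4 B cell, 5 heterophil and 3 monocyte markers measured had none called in any comparison. The part of cell make-up in the values of BF2, TAP1, TAPBPL and ERAP1 was not tested.

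For each member, the 5 named genes whose residuals followed it most closely over 32 birds were listed, as a description. For BF2 they were ACADL (r 0.62), BG8 (0.61), MYO1E (0.60), NR1I3 (0.58) and C4A (0.58). BG8 is annotated to chromosome 16, as BF2 is. For B2M they were GUK1 (0.69), TUBGCP2 (0.67), SIL1 (0.65), FAM206A (0.65) and FOXRED1 (0.64). Without bird 31 these r values ran from 0.58 to 0.62 for BF2 and from 0.62 to 0.68 for B2M.

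The genes most like TAP1 were CPNE2 (r 0.81), GBP1 (0.78), TRIM58 (0.77), MIR1B (0.76) and IRF7 (0.76), the last of which is on the interferon list. For TAPBPL they were GFER (0.86), ERAP1 (0.83), ZDHHC4 (0.82), NMI (0.81) and ERMP1 (0.80). For ERAP1 they were PXK (0.91), MITD1, ETV6, CH25H and KLHL10 (0.90 each). Without bird 31 the r values fell in the range of 0.58 to 0.66 for TAP1, 0.64 to 0.76 for TAPBPL and 0.61 to 0.70 for ERAP1, so the likeness rests in part on that bird.

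Of 27 other genes of the class I pathway listed, 12 were measured. Among them are CANX, a chaperone of new heavy chains, PDIA3, an oxidoreductase of the loading complex, TAPBP (tapasin), which bridges class I and the transporter, and JAK2, a kinase of the interferon gamma receptor. BF1 and TAP2, the closest partners of BF2 and TAP1, have no value of their own here, since no tested probe set carried either as its only symbol. LNPEP, also among the 12, had a low mean signal of 3.01. In the diet comparisons none of the 12 passed. In males 6 were above 0 and 6 below, with a median of 0.00, or 4 above and 8 below without bird 31, with a median of -0.04. In females 8 were above 0 and 4 below, with a median of 0.03, beside -0.01 for all probe sets in both sexes.

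CANX, by the brighter of its 2 probe sets, leaned with BF2, at 0.44 ± 0.234 in males and 0.64 ± 0.234 in females for comfrey minus control. Over both sexes it was 0.54 ± 0.164 (unadjusted p 0.00244, adjusted p 0.573). TAPBP differed by -0.17 ± 0.11 in males and -0.06 ± 0.11 in females, with adjusted p-values of 0.572 and 0.998. For sex, 2 of the 12 passed, where 5.35% of all probe sets did, and both rose in males. JAK2, which is Z-linked in chickens, differed by 0.21 ± 0.0345 (adjusted p 3.52e-05), and HSPA5, a chaperone of the endoplasmic reticulum, by 0.34 ± 0.0851 (adjusted p 0.0119).

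The neighbours of BF2 and TAP1 in the B locus were covered by 5 of 13 listed genes, BG1, TAPBP, DMA, DMB2 and C4. None passed in any comparison. In males all 5 differences of comfrey minus control were below 0, with a median of -0.22 beside -0.01 for all probe sets. That of BG1, which had a mean signal of 3.37, was -0.13 ± 0.349. The smallest unadjusted p was that of complement C4, at -0.35 ± 0.103 in males (unadjusted p 0.00198, adjusted p 0.414), by the brightest of its 13 probe sets, 1 of which had the other sign. BF2 had the opposite sign to these 5 in males, and that contrast was not tested.

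MHC class II molecules present peptides from outside the cell. Of 9 listed genes of that pathway 4 were measured, DMA, DMB2, CD74 and CIITA. The listed chains of the class II molecule itself, BLA, BLB1 and BLB2, had no value of their own. CIITA and DMA had mean signals of 3.88 and 6.40, both below the lowest array median of 6.51. DMA was taken from the brighter of its 2 probe sets, which differ in sign for diet in females and for sex. None of the 4 measured genes passed in any comparison. In males 1 was above 0 and 3 below, with a median of -0.26, and in females 3 were above 0 and 1 below, with a median of 0.06. CD74, the invariant chain of class II, differed by 0.14 ± 0.153 in males and 0.23 ± 0.153 in females.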

How the data were processed

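The data are arrays of blood RNA from 32 broiler chickens, 8 per diet and sex, grouped by the labels for diet and sex. The authors deposited log2 probe set signals, made with GCOS 1.1.1 and RMA per the submitters' processing notes. RMA subtracts a modelled background, gives all arrays the same distribution and combines the probes of a set. The log base of 2 was inferred from the range of 0.83 to 13.97. Quantile normalization sets the arrays to a common distribution, so a shift of most genes would not be seen. Labelling used the GeneChip WT PLUS kit, per the labels' protocols. The sources used here name no genome build for the annotation.

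Of 20804 rows, 2910 were blank in every array and left out, and all 17894 others were tested without a filter. A single gene symbol was listed for 10264, several for 182 and none for 7448. Of the single symbols, 9770 were matched by gene id, 474 by symbol and 15 by an older symbol to a RefSeq table (assembly GRCg7b), which gave names and chromosomes, and 5 were unmatched.

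Models were fitted with limma 3.58.1 (lmFit, eBayes) in R 4.3.3 to all 32 arrays, two-sided, with Benjamini-Hochberg adjustment over 17894 probe sets. Diet within each sex and the interaction used a mean for each of the 4 groups. Diet over both sexes held sex as a covariate, and sex held diet. Correlations used residuals from the 4 means with 100000 permutations of birds within groups, in Python 3.11.15 with numpy 2.4.6, pandas 2.3.3, scipy 1.17.1 and matplotlib 3.10.9. Each bird is a separate animal. The models were checked on simulated data.

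The members and all lists were chosen with earlier results of these data known. The named genes are the members, the listed genes and, for each member, the 5 named genes with the highest correlation of residuals. A gene with several probe sets is represented by the brightest. The alternatives were bird number as a covariate, birds 1 to 16 against 17 to 32 as a block, array weights, centring, brighter probe sets only, fits to 1 sex, leaving out each bird, and, for correlations, ranks and leaving out birds.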

Additional observations from a re-analysis of the deposited data

Results flagged for a closer look

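A bird was far from the other 7 of its group in 2 of 24 groups examined, where chance gives about 1 in 20. The ratio of the bird's gap to the group's range exceeded Dixon's critical value of 0.526 for 8 birds. ERAP1 in control male bird 31 was 11.79, with the nearest control male at 10.93 and a ratio of 0.72. B2M in comfrey male bird 19 was 13.13, with the nearest comfrey male at 13.19 and a ratio of 0.54. The B2M gap is small in size, while bird 31 also had the highest TAP1, TAPBPL and mean of interferon genes.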

How the results depend on the processing

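No member was called for diet or the interaction under any alternative. For sex, ERAP1 passed under every alternative, and 2 members passed when only brighter probe sets were tested (TAPBPL, adjusted p 0.0343) and 1 to 2 when 1 bird was left out. Of member pairs, 3 correlated with all birds and 1 without the 2 birds farthest from the median. Signs turned for differences close to 0. Centring arrays on brighter named probe sets gave B2M differences of -0.037 for diet in males, -0.0172 in females, -0.0198 for the interaction, -0.0271 over both sexes and -0.0318 for sex. Array weights gave -0.00176 for B2M and -0.0165 for TAPBPL in females. Bird number as a covariate gave -0.0102 for the B2M interaction and -0.0316 for TAPBPL in females, and the block of birds 1 to 16 against 17 to 32 gave -0.00417 and -0.00703. Leaving out 1 bird gave ranges of -0.00124 to 0.0221 for B2M in males, -0.0105 to 0.0129 for B2M in females, -0.0222 to 0.0865 for TAPBPL in females, -0.0222 to 0.0174 for ERAP1 in females and -0.00377 to 0.0218 for the B2M interaction. Without bird 31, a choice made after seeing the data, the r of B2M was -0.165 with TAP1, -0.118 with ERAP1 and -0.238 with the interferon list. Over the array, 958 probe sets were called for sex, 1449 after centring and 820 to 990 without 1 bird. For diet in females 1 was called, 0 with brighter probe sets only or arrays of 1 sex, and 0 to 3 without 1 bird. The interaction had 0 called, and 1 without comfrey male replicate 8. The cause of these shifts was not tested. No paired analysis was possible because the replicate numbers only name birds in accession order. With 8 birds a group, the median SE of a diet difference within a sex was 0.115 over all probe sets. BF2 had a larger SE of 0.223, and its difference of 0.58 in females did not pass.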

Other observations

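A probe set that the annotation lists under both BF1 and TAP1, genes of the B locus, was no member. Its signal is credited to neither gene. Its relations with the members were computed after seeing the data, over 6 relations. Its r with BF2 was -0.66 (permutation p 7e-05, adjusted p 0.00021) and its rho -0.72 (permutation p 2e-05, adjusted p 6e-05). That r was -0.71 without birds 31 and 29, the farthest from the median, -0.72 in birds 1 to 16 and -0.61 in birds 17 to 32. Its r with TAP1 was 0.73 (permutation p 2e-05, adjusted p 0.00012) and its rho 0.73 (permutation p 2e-05), with an r of 0.64 without those birds. With ERAP1 the r was 0.57 (permutation p 0.00189, adjusted p 0.00378), with the interferon list 0.53 (permutation p 0.00344, adjusted p 0.00516), with TAPBPL 0.48 (permutation p 0.00993, adjusted p 0.0119) and with B2M 0.04 (permutation p 0.85, adjusted p 0.85). Without bird 31 alone these were 0.45, 0.36, 0.31 and -0.07. TAP1 is itself a member and BF1 a close relative of BF2. The relations with TAP1 and BF2 therefore cannot be read as ones between separate transcripts. Whether the probes of this shared set overlap those of a member was not tested. Its signal was 13.17 ± 0.16 in comfrey males, 13.27 ± 0.26 in control males, 13.27 ± 0.26 in comfrey females and 13.36 ± 0.12 in control females (SD, n = 8 each). Its diet difference over both sexes was -0.09 ± 0.0733 (limma, adjusted p 0.706), and no comparison called it.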
